A study of Mus musculus with 20 samples.

Results

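RNA bound to ribosomes of endothelial cells was compared with the RNA of the whole tumor lysate in tumors treated with 6-3-A6, a mouse monoclonal antibody against Notch4. The comparison holds 10 of the 20 libraries of the series: an immunoprecipitate (IP) and an input library from each of 5 tumors, taken by the column names of the count table and the sample titles and paired by tumor number. The remaining 10 libraries are the IP and input of 5 tumors treated with control mouse IgG. All tumors were Py8119 mammary tumors grown in the mammary fat pad of female C57BL/6J RiboTagEC mice, which carry the Rpl22 HA alleles (labelled Rpl22HA/HA) and Cdh5CreERT2 in every group. Tamoxifen was given at 3 weeks of age (75 mg/kg for 5 days), tumor cells were implanted at 8 weeks, and 25 mg/kg of 6-3-A6 or control IgG was injected into a vein 2 times a week, with harvest 10 days after the start of treatment. Treatment began at a tumor volume given as about 30 mm3 in the treatment protocol and as an average of 50 mm3 in the series design.

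In the RiboTag system, Cre recombinase switches the last exon of Rpl22, a protein of the large ribosomal subunit, to a copy that ends in an HA tag, so that an anti-HA antibody pulls down the ribosomes of the cells in which Cre was active together with the mRNAs on them. Cdh5 encodes VE-cadherin, the adhesion molecule of endothelial junctions, and its promoter drives the tamoxifen-dependent Cre used here. The tag marks only cells in which the recombination took place, the Py8119 cells themselves carry no tag, and all tumors come from 1 cell line. A gene higher in IP than in input is thus one whose RNA makes up a larger share of the pulled-down RNA than of the lysate. In such bulk samples, fewer cells of a type and less RNA per cell cannot be told apart, and a lower share in the IP can also follow from other RNAs taking a larger share.

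The 10 libraries held between 13914730 and 26728205 counts assigned to genes. The input of tumor 4 stood apart from the other 4 inputs. Its median correlation with them over genes was 0.887 against 0.943 to 0.967 for the others, 38.2% of its counts lay in mitochondrially encoded genes against 6.9 to 13.1%, and 47 genes that had at least 5 counts in each of the other 19 libraries had none in it, against 0 to 2 such genes in the other 9 libraries. Each gene's log2 level in a library was also set against its median in the other libraries of that fraction. The rank correlation of these deviations with the GC content of the genes was -0.56 in the input of tumor 4. It was -0.169 to 0.317 in the other libraries. Among the IPs, that of tumor 2 was the lowest in endothelial genes: the mean log2 difference of IP over input across 21 endothelial markers was 4.34, 2.53, 4.37, 5.67 and 4.11 in tumors 1 to 5. Results are therefore given with all 5 tumors, and the count or median of a list also without tumor 4 where that moved it by over 1.5 times.

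In the paired test (edgeR quasi-likelihood with the tumor as a block, Benjamini-Hochberg adjusted p under 0.05, here "called"), 1832 of 13790 genes tested were higher in IP (13.3%) and 1698 were lower (12.3%). Of these, 1030 were called with a log2 fold change over 1 (7.47%) and 821 with one under -1 (5.95%). The median log2 fold change of all tested genes was -0.02. Counts of list members below are to be read beside the 13.3% and 12.3% of all genes tested. The 5 IP libraries lay above all 5 inputs for 1199 genes (8.69%) and below them for 865 genes (6.27%). Without tumor 4, 2706 genes were called higher (19.5%) and 2925 lower (21.1%) of 13857 tested, and among the genes tested in both fits these included 1827 of the 1827 higher and 1694 of the 1696 lower calls of the 5 tumors. Leaving out tumor 1, 2, 3 or 5 instead gave 966, 1313, 967 and 1440 higher calls and 621, 936, 633 and 1036 lower calls, with 464, 606, 420 and 621 under -1. In tumors 1, 3 and 4, whose IP libraries the study kept, 883 genes were called higher and 388 lower, 352 of them under -1, and 91 of the 138 called genes named here stayed called. Scaling by library totals alone, without the TMM step, moved the median of all genes up by 0.22 and the share of calls that were higher from 51.9% to 74.7%, with 801 genes lower and 390 under -1, and directions below are relative to the TMM scale. Of the 138 called genes named here, 138 kept their direction and call without tumor 4. Without the tumor block 1354 genes were called higher (9.82%) and 1153 lower (8.36%), 104 of the named genes stayed called, and the adjusted p of that fit is given beside those that did not.

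**Figure D1:**
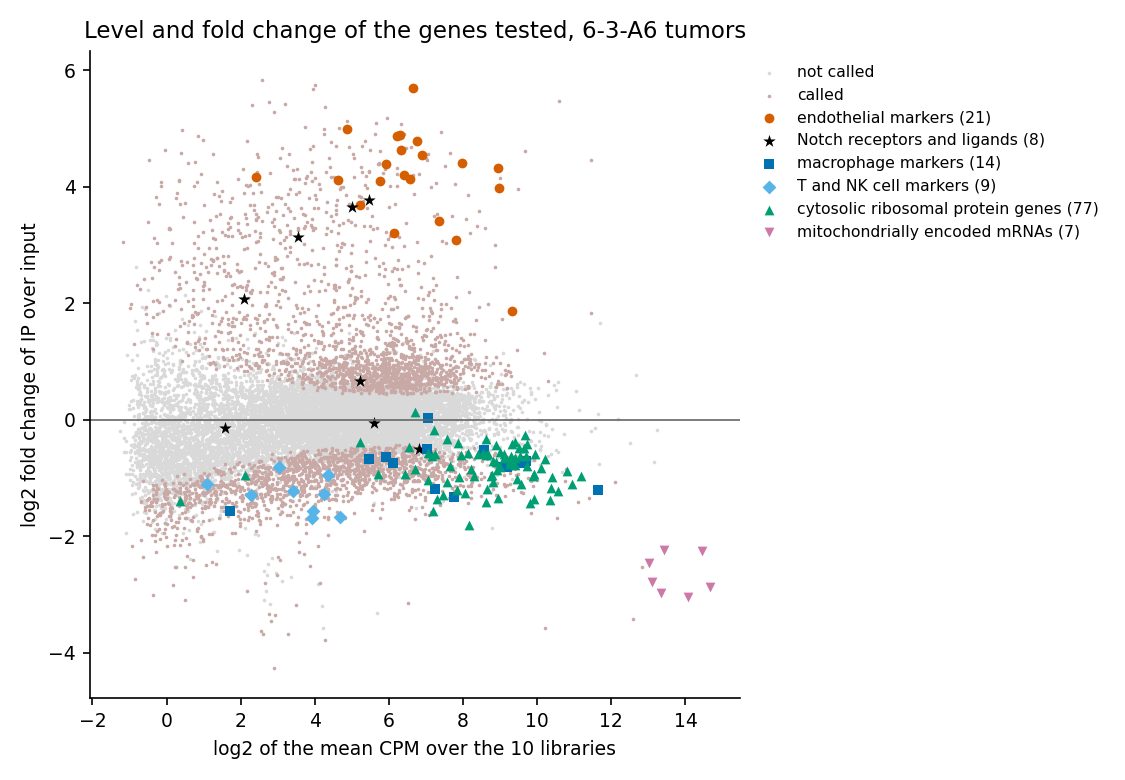
Log2 fold change of IP over input (vertical axis) against the log2 of the mean CPM over the 10 libraries (horizontal axis) for the 13790 genes tested in 6-3-A6 tumors; grey points were not called, pale brown points were called, and marked points are members of 6 lists. The 21 endothelial markers lie between 1.88 and 5.69, while the 7 mitochondrially encoded mRNAs lie lowest among the marked lists.

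The endothelial identity of the IP rested first on Pecam1, Cdh5 and Sox18, whose levels are given for tumors 1 to 5 in CPM, the count relative to the TMM-scaled library total. Pecam1 (CD31, 11:106545043-106641454 in the count table) was at 65.7, 44.2, 59.6, 34.4 and 56.5 CPM in the inputs and at 1379, 187, 898, 1147 and 1096 CPM in the IPs. Every IP lay above every input, that of tumor 2 by the least, and the log2 fold change was 3.98 ± 0.43 (SE, n = 5 tumors, adjusted p = 0.000491). Cdh5 (8:104828257-104871143), the gene whose promoter drives the Cre, was at 55.2, 37.7, 46.3, 34.5 and 32.8 CPM in the inputs and 1422, 215, 906, 1133 and 992 CPM in the IPs, again without overlap and again with the lowest IP in tumor 2 (log2 fold change 4.32 ± 0.40, adjusted p = 0.000259). Sox18 (2:181311629-181313433), a transcription factor of vascular and lymphatic development, was at 3.82, 3.46, 3.48, 1.56 and 4.99 CPM in the inputs and 187, 98.7, 245, 318 and 130.1 CPM in the IPs (log2 fold change 5.69 ± 0.43, adjusted p = 0.000129). Its IP values did not overlap the inputs either, and it had the third largest fold change of all genes named by size below. The positions are those of the count table; 3.4% of 13378 tested genes start within 1000 bases of their GRCm38 position in GENCODE M21, so they are not GRCm38 positions.

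**Figure D2:**
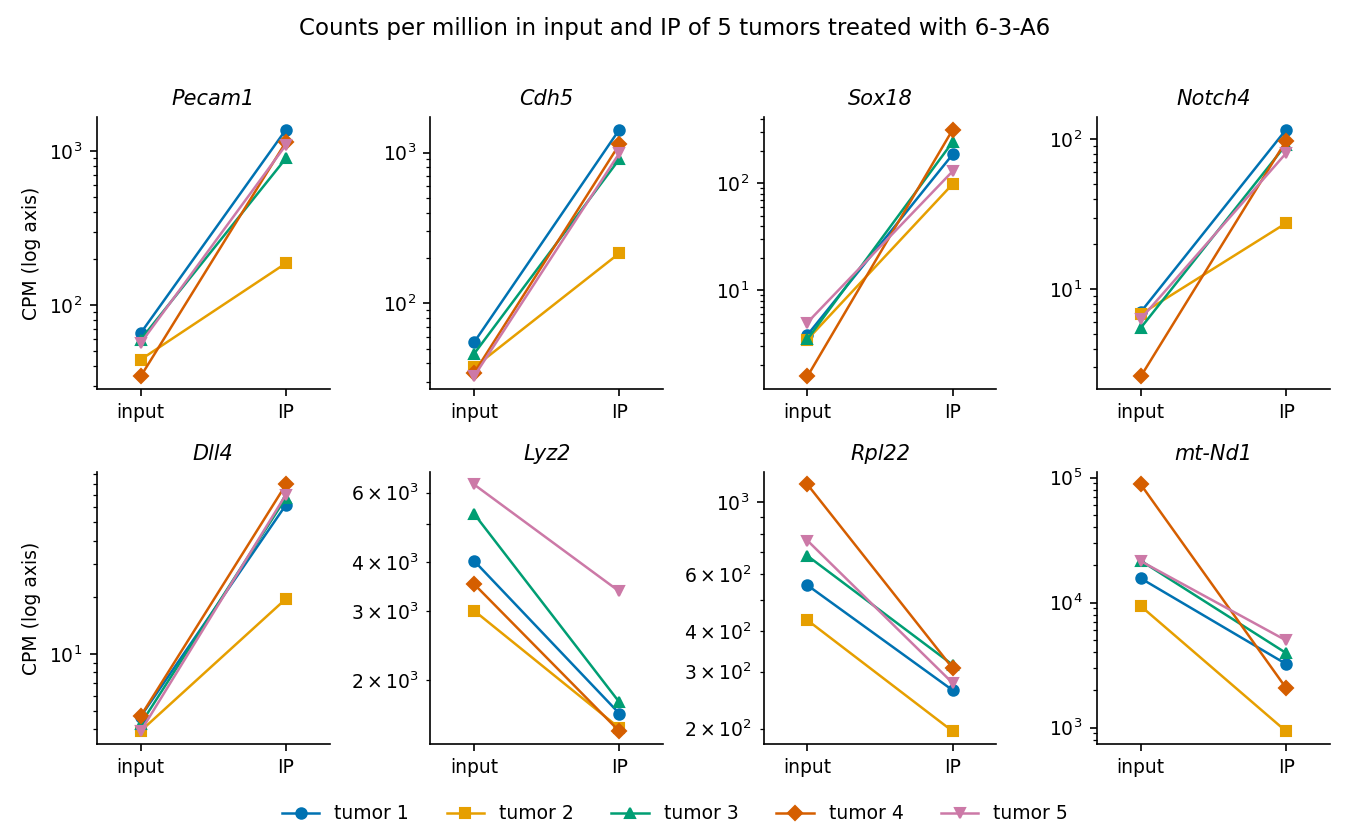
CPM (log axis) of 8 genes in the input and IP of each tumor, with the 2 fractions of a tumor joined by a line and a color and symbol per tumor. Pecam1, Cdh5, Sox18, Notch4 and Dll4 rise from input to IP in all 5 tumors, with tumor 2 lowest in IP, and Lyz2, Rpl22 and mt-Nd1 fall in all 5.

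All 21 measured endothelial markers of a list of 22 were called higher, with a median log2 fold change of 4.21 against -0.02 over all genes tested; the remaining member, Ecscr, had no count in any library. The summed level of the list was 411 to 599 CPM in the inputs and 1515 to 8121 CPM in the IPs. Clec14a, a surface lectin-like protein of endothelial cells, was at 2.47, 1.32, 1.12, 0.626 and 1.87 CPM in the inputs and 106, 10.1, 59.9, 57.6 and 49.7 CPM in the IPs (log2 fold change 4.98 ± 0.47). Robo4, a receptor that steadies vessel walls, went from 6.85, 4.67, 4.77, 0.417 and 6.08 CPM to 179, 35.7, 159.8, 199 and 144 CPM (log2 fold change 4.86 ± 0.63). Neither gene overlapped between the fractions.

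The transcription factors that set endothelial fate rose as well: 15 of 20 tested members of the list were called higher and 0 lower (median 2.05). The other members of the SOXF family were at the front with Sox18. Sox7 was at 3.6, 2.7, 3.82, 3.34 and 1.95 CPM in the inputs and 130.1, 60.4, 166, 170.4 and 70.5 CPM in the IPs, a log2 fold change of 5.18 ± 0.22. Sox17, which also marks arteries, was at 0.674, 1.28, 1.57, 1.25 and 0.312 CPM in the inputs and 34.3, 10.4, 50.0, 33.3 and 12.9 CPM in the IPs (4.65 ± 0.39). Erg, the ETS factor kept on in nearly all endothelium, rose by 4.50 ± 0.28, from 7.59, 5.88, 8.53, 22 and 11.3 CPM to 263, 95.7, 339, 305 and 219.8 CPM, and its highest input was that of tumor 4. For all 3 genes the fractions were apart in every library. The 5 members not called lay between -0.38 and 0.62.

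Of 9 tested junction molecules 7 were called higher and 1 lower (median 1.64). Cldn5, the claudin of endothelial tight junctions, was at 6.52, 3.18, 8.59, 0 and 5.46 CPM in the inputs and 228, 28.5, 266, 155 and 90.0 CPM in the IPs (log2 fold change 4.88 ± 0.71, adjusted p = 0.00212). The input of tumor 4 held no Cldn5 read, so that its IP was at least 497-fold higher against a floor of 3 counts in that library, and without that tumor the log2 fold change was 4.34. Esam and Jam2, adhesion molecules of the same junctions, rose by 4.78 ± 0.50 and 4.19 ± 0.35, respectively. Cldn1, a claudin of epithelia, was the member that fell (-1.28 ± 0.32, adjusted p = 0.0202), and its call was lost when tumor 1, 2 or 3 was left out (adjusted p up to 0.0771). In the list of caveolae and diaphragm genes all 5 tested members were called higher (median 4.55); Cav1, Cav2 and Cavin2 had no count in any library. Cavin1 and Cavin3, coat proteins of caveolae, rose by 4.58 ± 0.35 and 4.67 ± 0.32. Plvap, which forms the diaphragms of fenestrae, rose by 4.55 ± 0.53, and Ehd4, a membrane-remodelling ATPase, by 1.48 ± 0.17.

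A list of adhesion receptors coupled to G proteins, vasoactive receptors and related enzymes and signal proteins held some of the strongest changes. In this list 13 of 14 tested members were called higher (median 3.25), and the fourteenth was at 0.11. Nos3, the endothelial nitric oxide synthase, was at 0.449, 0.346, 0.0561, 0 and 0.39 CPM in the inputs and 13.8, 5.41, 20.6, 17.1 and 10.3 CPM in the IPs, a log2 fold change of 5.46 ± 0.61 (adjusted p = 0.000631). Its IP values were all above the inputs, of which that of tumor 4 held none of its reads. Ramp2, which turns the calcitonin-receptor-like receptor into an adrenomedullin receptor, rose by 5.08 ± 0.42, from 3.88, 3.46, 3.14, 3.23 and 6.86 CPM to 193, 37.2, 167, 232 and 157 CPM. Its relative Ramp3 was at 4.61, 3.08, 5.39, 0.834 and 2.5 CPM in the inputs and 87.9, 7.61, 96, 31.8 and 10.1 CPM in the IPs (3.35 ± 0.56). The groups of both did not overlap, and the Ramp3 IPs ranged widely, with tumors 2 and 5 far below tumors 1 and 3. Adgrl4, an adhesion receptor of sprouting endothelium, and Aplnr, the apelin receptor, rose by 4.36 ± 0.43 and 4.27 ± 0.42.

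All 8 capillary genes were called higher (median 3.59). The largest change was that of Gpihbp1, which carries lipoprotein lipase to the capillary lumen (4.93 ± 0.44). Aplnr (4.27 ± 0.42), Cd300lg (4.23 ± 0.41) and Btnl9 (3.88 ± 0.40) followed. Tip cell genes were called higher in 6 of 7 tested members (median 2.75), with Mcam, an adhesion molecule, at 3.86 ± 0.40 and Apln, the apelin ligand, at 3.33 ± 0.31. Esm1, Angpt2 and Kcne3, which belong to the same list, had no count in any library. Arterial genes were called higher in 6 of 9 tested members and lower in 1 (median 2.04). Sema3g, a secreted semaphorin, rose by 4.25 ± 0.45, and Gja4, which encodes connexin 37, by 3.45 ± 0.60. The arterial member that fell was Cxcl12, a chemokine that fibroblasts also make, at -0.54 ± 0.16 (adjusted p = 0.0418; without the block 0.11, and up to 0.138 when tumor 1, 2, 3 or 5 was left out). Among 6 venous genes 2 were higher and 1 lower (median 0.55); without tumor 4 the counts were 2 and 1 of 5 tested and the median 0.04. Ackr1, the chemokine-scavenging receptor of venules, rose by 2.95 ± 0.56 from under 1 CPM in each input, and Ephb4, a venous ephrin receptor, by 1.10 ± 0.30. Leaving out tumor 1, 3 or 5 ended the call of Ephb4 (adjusted p up to 0.0858). Of the 6 lymphatic markers tested, Flt4 (4.03 ± 0.44) and Prox1, the master regulator of lymphatic fate (1.51 ± 0.34), were called higher; without tumor 4 the list had 4 higher and 1 lower, and without tumor 3 the adjusted p of Prox1 was 0.0534.

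Leukocyte adhesion molecules were called higher in 3 of 6 tested members and lower in 1 (median 1.75), and without tumor 4 in 3 and 2 of 5 (median 1.19). Cd34 and Icam2, both carried on the luminal surface of vessels, rose by 4.21 ± 0.37 and 4.12 ± 0.38, and Podxl, a sialomucin, by 1.37 ± 0.28 with overlapping groups. Vcam1, the ligand of integrin alpha-4 on activated endothelium and on stromal and myeloid cells, fell. It was at 702, 546, 573, 779 and 650.0 CPM in the inputs and 196, 369.8, 222, 142 and 552 CPM in the IPs (log2 fold change -1.29 ± 0.33, adjusted p = 0.0225). Each IP lay below its own input, the groups overlapped only in that the IP of tumor 5 just exceeded the input of tumor 2, and the call was lost without tumor 1 or 3 (adjusted p up to 0.0899).

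Notch signaling works between neighbouring cells: ligands of the Delta-like and Jagged families on 1 cell open the Notch receptor of the next, whose intracellular part then turns on genes such as those of the Hes and Hey families. Notch4, the receptor that 6-3-A6 is raised against, is known mainly from endothelium, where Dll4 is the main ligand of sprouting vessels. Of the 8 Notch receptors and ligands tested 4 were called higher and 0 lower (median 1.37). Notch4 (17:34783242-34807477 in the count table) was at 7.02, 6.78, 5.5, 2.61 and 6.32 CPM in the inputs and at 116, 27.5, 92.2, 97.7 and 80.7 CPM in the IPs. Its groups did not overlap, tumor 2 had the lowest IP and tumor 4 the lowest input, and the log2 fold change was 3.78 ± 0.41 (adjusted p = 0.000559) with all tumors and 3.44 without tumor 4. Notch1, which is expressed in many cell types, was at 36.1, 43.7, 31.4, 7.3 and 34 CPM in the inputs and 57.8, 51.6, 39.5, 28.3 and 40.8 CPM in the IPs. These groups overlapped, and the log2 fold change of 0.66 ± 0.26 was not called (adjusted p = 0.0911); tumor 4 differed most, and without it the value was 0.37. Notch2 and Notch3, receptors of macrophages and mural cells among others, had log2 fold changes of -0.51 ± 0.20 and -0.15 ± 0.27 that were not called (adjusted p = 0.0911 and 0.712).

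The ligands divided in the same way. Dll4 was at 4.66, 3.91, 4.26, 4.69 and 3.9 CPM in the inputs and 62, 19.7, 67.7, 79.5 and 70.3 CPM in the IPs (log2 fold change 3.66 ± 0.30, adjusted p = 0.000161). Jag2 was at 2.47, 1.9, 2.81, 1.36 and 2.26 CPM in the inputs and 28.4, 6.42, 23.7, 24.8 and 22.2 CPM in the IPs (3.14 ± 0.33), and Dll1 at 1.85, 1.18, 1.29, 1.88 and 1.64 CPM and 7.04, 3.21, 8.69, 10.0 and 6.14 CPM (2.08 ± 0.27). In all 3 every IP exceeded every input. Jag1, a ligand of many tissues, did not pass the test, with 50.7, 56.5, 34.6, 56.8 and 46.6 CPM in the inputs and 46, 51.9, 33.2, 40.7 and 68.9 CPM in the IPs (-0.05 ± 0.18, adjusted p = 0.859). Among 10 tested targets and modulators 3 were called higher and 0 lower (median 0.32); without tumor 4 the counts were 4 and 2 and the median 0.08. The target Hey1 was at 4.44, 4.08, 4.55, 2.82 and 2.34 CPM in the inputs and 48.8, 17.4, 48.4, 62.3 and 31.2 CPM in the IPs (3.40 ± 0.33, adjusted p = 0.000301). Mfng, a glycosyltransferase that modifies Notch receptors, rose by 2.31 ± 0.43 and Rnd1, a small GTPase, by 1.83 ± 0.25. Hes1, a target in most cell types, was at 0.44 ± 0.15 and not called (adjusted p = 0.0649), but was called without tumor 4 (0.51, adjusted p = 0.0129).

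The promoters of 4 genes that rose together are shown for their sequence, since ETS, SOX, FOX and GATA factors are the classes known to drive endothelial genes. Each is the 250 bases before the transcription start in RefSeq on GRCm38.p6, 5′ to 3′ on the gene's strand, for Notch4 (chr17:34564045-34564294, + strand), Dll4 (chr2:119325534-119325783, + strand), Cldn5 (chr16:18776597-18776846, + strand) and Kdr (chr5:75978456-75978705, - strand). Capitals mark AGGAAG on either strand, the form of the ETS core that was searched for.
Notch4: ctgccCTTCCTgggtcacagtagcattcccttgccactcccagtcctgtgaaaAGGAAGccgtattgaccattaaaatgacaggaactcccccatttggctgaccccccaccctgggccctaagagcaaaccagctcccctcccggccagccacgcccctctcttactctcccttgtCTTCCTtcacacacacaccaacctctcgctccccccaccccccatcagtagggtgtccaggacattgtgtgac
Dll4: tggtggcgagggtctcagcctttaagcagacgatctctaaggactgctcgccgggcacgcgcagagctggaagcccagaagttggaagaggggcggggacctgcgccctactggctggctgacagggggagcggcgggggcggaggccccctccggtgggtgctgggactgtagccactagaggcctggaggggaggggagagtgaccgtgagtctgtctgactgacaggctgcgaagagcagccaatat
Cldn5: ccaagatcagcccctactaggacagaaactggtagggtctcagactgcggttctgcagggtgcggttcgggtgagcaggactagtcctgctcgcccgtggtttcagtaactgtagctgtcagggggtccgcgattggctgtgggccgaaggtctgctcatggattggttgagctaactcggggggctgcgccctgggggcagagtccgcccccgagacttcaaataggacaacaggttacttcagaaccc
Kdr: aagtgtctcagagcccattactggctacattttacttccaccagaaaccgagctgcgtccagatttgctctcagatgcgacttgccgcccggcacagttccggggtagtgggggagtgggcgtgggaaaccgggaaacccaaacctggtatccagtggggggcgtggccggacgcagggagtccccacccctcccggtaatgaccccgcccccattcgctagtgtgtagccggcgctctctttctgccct
The Notch4 window held AGGAAG 3 times, the nearest ending 67 bases before the start, and the other 3 windows held no exact match to it. Shorter forms such as GGAAG, which the Dll4 window shows, were not counted. None of the 4 held the SOX core AACAAT, the FOX core TGTTTAC or the GATA core AGATAA. Of the 525 genes called with a log2 fold change over 2, 378 had promoter windows in the table, 515 windows in all. The ETS core stood in 35% of these windows, against 28.7% of the 13430 windows of tested genes and 34% of the 701 windows of genes called with a log2 fold change under -1. The shares in the same order were 7.57, 5.43 and 5.99% for the SOX core, 1.55, 2.15 and 2.14% for the FOX core and 6.21, 6.08 and 7.7% for the GATA core. The mean GC content of the windows was 58.7, 59.4 and 56.2%. AGGAAG was thus about as frequent in windows of genes called under -1 as in those of genes called over 2, cut-offs of unlike size. Genes without a window included Pecam1, Cdh5, Sox18, Nos3, Esam and Sox17.

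Of 10 tested VEGF ligands and receptors 4 were called higher, 3 of them receptors and 1 a ligand, and 3 other ligands lower (median 0.05, and 0.14 without tumor 4). Kdr (VEGFR2), the main receptor of endothelial cells, was at 8.48, 10.6, 8.08, 9.07 and 10.9 CPM in the inputs and 199.9, 59.6, 176, 238 and 223 CPM in the IPs (4.13 ± 0.35, adjusted p = 0.000172), and only tumor 2 had an IP under 100 CPM. The other receptors Flt1 (VEGFR1) and Flt4 (VEGFR3) rose by 3.08 ± 0.35 and 4.03 ± 0.44. The ligand Pgf, which binds Flt1, was at 9.83, 8.86, 10.9, 5.32 and 5.38 CPM in the inputs and 86.1, 14, 96, 45.5 and 33.3 CPM in the IPs (2.56 ± 0.38). The ligands that fell were Vegfd (-1.11 ± 0.26), Vegfb (-1.01 ± 0.29) and Vegfa (-0.60 ± 0.14). Vegfa, the hypoxia-induced ligand made by tumor and stromal cells, was at 91.5, 87, 115, 66.9 and 38.8 CPM in the inputs and 59.6, 66.5, 76.1, 39 and 25.2 CPM in the IPs, lower in each tumor but with overlapping groups (adjusted p = 0.0157; without the block 0.23). These 3 calls were lost when tumor 3 or 5 was left out, and those of Vegfa and Vegfb also without tumor 1 (adjusted p up to 0.119). Vegfb further lost its call without tumor 2.

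Basement membrane genes were called higher in 10 of 14 members and lower in 0 (median 1.89). Sparcl1, a matricellular protein, was at 59.6, 41.5, 54.3, 45 and 36.5 CPM in the inputs and 889.5, 163, 590.3, 791 and 755 CPM in the IPs (3.59 ± 0.36). Nid1 and Nid2, the nidogens that link laminin to collagen IV, rose by 2.43 ± 0.28 and 2.75 ± 0.32, and Lama4, the laminin alpha chain of vessel walls, by 2.33 ± 0.23. Among 11 genes of the BMP and TGF-beta pathway 4 were higher and 1 lower (median 0.58). Eng (endoglin) and Acvrl1 (ALK1), which form the endothelial BMP9 receptor, rose by 3.41 ± 0.42 and 2.31 ± 0.44, their target Id1 by 2.05 ± 0.19, and the ligand Bmp6 by 2.95 ± 0.75. Bmp6 was at 0.281, 0.277, 0.224, 2.29 and 0.078 CPM in the inputs, with tumor 4 far above the rest, and 6.81, 0.833, 5.97, 2.86 and 2.28 CPM in the IPs. Tgfbr3 (betaglycan), the co-receptor of other cell types, fell by 0.78 on the log2 scale. The calls of Bmp6 and Tgfbr3 were lost without tumor 1 or 3, and that of Bmp6 also without tumor 5 (adjusted p up to 0.0948). In the list of coagulation and fibrinolysis genes 3 of 10 were higher and 2 lower (median 0.54), and without tumor 4 the counts were 5 and 2. Vwf, stored in endothelial granules, rose by 3.20 ± 0.31 and Tfpi, the inhibitor of tissue factor, by 1.79 ± 0.24. F3, tissue factor itself, was lower (-1.28 ± 0.32), as was Plat, the tissue plasminogen activator (-0.86 ± 0.17); the call of F3 was lost without tumor 1 or 3 (adjusted p up to 0.0923).

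The 10 largest log2 fold changes among called genes of at least 1 CPM on average with the same sign in all 5 tumors were those of Hoxd10 (5.83 ± 0.51), Fam110d (5.75 ± 0.46), Sox18, Ct55 (5.69 ± 0.38), Bcar1 (5.47 ± 0.42), Nos3, Krt20 (5.42 ± 0.41), Zfp711 (5.40 ± 0.35), Rbp7 (5.37 ± 0.23) and Uchl1 (5.27 ± 0.50). Hoxd10, a homeobox factor, was at 0.225, 0.173, 0.112, 0 and 0.312 CPM in the inputs and 16.9, 3.15, 13.6, 14.6 and 10.9 CPM in the IPs. Rbp7, a retinol-binding protein of capillary endothelium, was at 0.674, 0.346, 0.73, 1.88 and 1.01 CPM in the inputs and 37.2, 16.9, 34.4, 73.2 and 25.7 CPM in the IPs. Bcar1, the focal adhesion scaffold p130Cas, was the most highly counted of the 10, with 79.8, 78.3, 92.6, 33.3 and 53.9 CPM in the inputs and 3260.4, 1485, 3236, 3974 and 3003 CPM in the IPs (adjusted p = 0.000129). For each of the 10 genes all IPs lay above all inputs. Krt20, a keratin known from gastrointestinal epithelium, was at 0.393, 0.311, 0.673, 0.104 and 0.312 CPM in the inputs and 24.3, 8.86, 32.3, 20.8 and 4.06 CPM in the IPs.

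At the other end, the 10 smallest log2 fold changes by the same rule belonged to 3 mitochondrially encoded noncoding RNAs, to Bc1 and to 6 gene models with provisional names. The mitochondrial ribosomal RNAs mt-Rnr1 and mt-Rnr2 fell by 3.57 and 3.42 on the log2 scale, and the transfer RNA mt-Tp fell by 3.78. Bc1, a short cytoplasmic noncoding RNA of neurons, was at 126, 61.2, 234, 99.3 and 309 CPM in the inputs and 14.4, 9.87, 32.9, 11 and 19.5 CPM in the IPs (-3.15 ± 0.22). The 6 gene models were Gm50306 (-4.27 ± 1.07), Gm11808 (-3.67 ± 0.88), Gm11942 (-3.67 ± 0.96), Gm8960 (-3.61 ± 0.76), Gm10051 (-3.45 ± 0.84) and Gm10073 (-3.35 ± 0.84). Their levels in the inputs were uneven: Gm50306 was at 0.618, 0.277, 2.53, 51.2 and 17.9 CPM, and in all 6 the input of tumor 4 was the highest. Without tumor 4 their log2 fold changes were -3.20, -2.77, -2.65, -2.59, -2.73 and -2.54, and in all 6 the groups overlapped. Without tumor 3 the calls of the 5 other than Gm8960 were lost, as were those of Gm11808, Gm10051 and Gm10073 without tumor 5 (adjusted p up to 0.0948).

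Markers of other cells of the tumor were mostly lower in the IP or not called, and macrophage and T cell RNA was still counted in every IP; its part in the results above was not tested. Of 14 macrophage markers 7 were called lower and 0 higher (median -0.74); without tumor 4 the number lower was 12, and without the block it was 2. Their summed level was 6399.8 to 14941 CPM in the inputs and 3409 to 9017 CPM in the IPs. Lyz2 (lysozyme) was at 4028, 3009, 5304, 3516 and 6296 CPM in the inputs and 1647, 1513, 1760.3, 1485 and 3366 CPM in the IPs, lower in each tumor, though the IP of tumor 5 lay above the input of tumor 2 (-1.20 ± 0.21, adjusted p = 0.00507). The lysosomal protein Cd68 fell by 1.32, the surface receptor Adgre1 (F4/80) by 1.18 and the scavenger receptor Marco by 1.57 on the log2 scale. Without the block the adjusted p of Adgre1 was 0.071 and that of Marco 0.24, and Marco lost its call when tumor 1, 2, 3 or 5 was left out (adjusted p up to 0.113).

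T and NK cell markers were called lower in 7 of 9 and higher in 0 (median -1.28), and without tumor 4 in 9 of 9. Gzmb, the granzyme of cytotoxic cells, was at 12.3, 33, 22.5, 19.5 and 89 CPM in the inputs and 3.03, 11.1, 5.59, 4.66 and 53.4 CPM in the IPs (-1.67 ± 0.23, adjusted p = 0.00183). Cd3g, Cd3d and Trac, parts of the T cell receptor complex, fell by 1.56, 1.29 and 1.28. Tumor 5 held the most T cell RNA in both fractions (summed list level 431 CPM in input and 237 CPM in IP; 61 and 29 CPM in tumor 1), so the groups overlapped, and without the block 0 of the 9 were called, with adjusted p = 0.29 for Gzmb, 0.17 for Cd3g, 0.25 for Cd3d and 0.24 for Trac. Neutrophil markers were called lower in 4 of 5 tested members (median -1.50), again 0 without the block. The remaining member had the lowest value of the list (-1.68) but was not called. Cxcr2, S100a9, S100a8 and Csf3r were at -1.59 ± 0.30, -1.50 ± 0.19, -1.10 ± 0.24 and -0.91 ± 0.18, with adjusted p of 0.25, 0.21, 0.25 and 0.12 without the block. Leaving out tumor 1 ended the calls of S100a8 and Csf3r, and leaving out tumor 3 that of S100a8 (adjusted p up to 0.0719). The only testable B cell marker, Cd79b, was at -0.58 ± 0.31 and not called, and Ms4a1 (CD20) had no count in any library. A 0 in this table says only that no count is listed, since B2m and the ribosomal protein genes Rpl24 and Rps10, used by nearly all cells, had none either. Dendritic cell markers were lower in 4 of 6 members and higher in 1. Xcr1, Cd209a, Ccr7 and Flt3 were at -1.68 ± 0.36, -1.59 ± 0.39, -1.41 ± 0.31 and -1.11 ± 0.28, and of these Ccr7 alone lay without overlap and stayed called without the block (adjusted p 0.06, 0.06 and 0.11 for the other 3). Each lost its call on leaving out tumor 3, Flt3 also without tumor 1 or 2, and Cd209a and Ccr7 without tumor 1, 2 or 5 (adjusted p up to 0.0944). The member that rose was Clec9a, a lectin of cross-presenting dendritic cells, at 1.8, 1.9, 1.01, 4.28 and 6.01 CPM in the inputs and 9.95, 2.44, 10.0, 12.1 and 12.1 CPM in the IPs (1.70 ± 0.42, adjusted p = 0.0195, up to 0.0815 without tumor 1 or 3).

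Fibroblast markers were called lower in 3 of 10 and higher in 0 (median -0.75). Mfap5, a microfibril protein, Dpt (dermatopontin) and Pdgfra, the receptor of mesenchymal cells, were at -1.14 ± 0.21, -1.08 ± 0.30 and -0.83 ± 0.21. The adjusted p of Dpt and Pdgfra was 0.075 and 0.096 without the block and up to 0.136 when tumor 1 or 3 was left out, and Dpt lost its call without tumor 2 or 5 as well. Epithelial markers were lower in 3 of 7 and higher in 0 (median -0.25, and -0.43 without tumor 4): Epcam, Cdh1 (E-cadherin) and Krt18 were at -1.43 ± 0.40, -1.04 ± 0.32 and -0.96 ± 0.21. Each of these 3 calls was lost without tumor 1 or 3, and those of Epcam and Cdh1 also without tumor 2 (adjusted p up to 0.15), and for Epcam the adjusted p without the block was 0.14. Of 10 mural cell markers 2 were called, both higher (median -0.17), beside 13.3% of all genes tested. Without tumor 4 these were 2 higher and 1 lower (median -0.09). Kcnj8 and Abcc9, the pore and the regulatory subunit of the vascular ATP-sensitive potassium channel, were at 3.83 ± 0.44 and 2.12 ± 0.29. Kcnj8 was at 5, 3.25, 7.01, 1.98 and 2.5 CPM in the inputs and 111, 22.8, 138, 78 and 12.1 CPM in the IPs, without overlap. The other 8 mural markers lay between -0.91 and 0.48 and were not called.

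Adipocyte markers were lower in 3 of 6, with Cfd, Lep and Adipoq at -1.19 ± 0.25, -1.17 ± 0.37 and -0.89 ± 0.24 (adjusted p without the block 0.22, 0.42 and 0.24, and up to 0.148 on leaving out tumor 3, for Adipoq also 2 or 5 and for Lep also 1, 2 or 5). The muscle gene Tnnt3 was the 1 of 3 tested muscle markers to be called (-0.99 ± 0.29, 0.2 without the block, and up to 0.118 when tumor 1, 2, 3 or 5 was left out); without tumor 4, 3 of 4 tested muscle markers were called lower. Pf4, a platelet granule chemokine, fell by 0.96, the 1 of 3 platelet markers called, while 12.3% of all genes tested were called lower. Of the globin genes Hba-a1, Hba-a2, Hbb-bs and Hbb-bt only Hbb-bs was called lower with all 5 tumors (-0.82 ± 0.16), while without tumor 4 each of them was, at -0.81, -0.82, -0.73 and -0.75. Hbb-bs ranged from 44.6 to 639 CPM across inputs, so that the groups overlapped and without the block the adjusted p was 0.63. Counts of the globin genes are uncertain, since near-identical copies share reads.

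**Figure D3:**
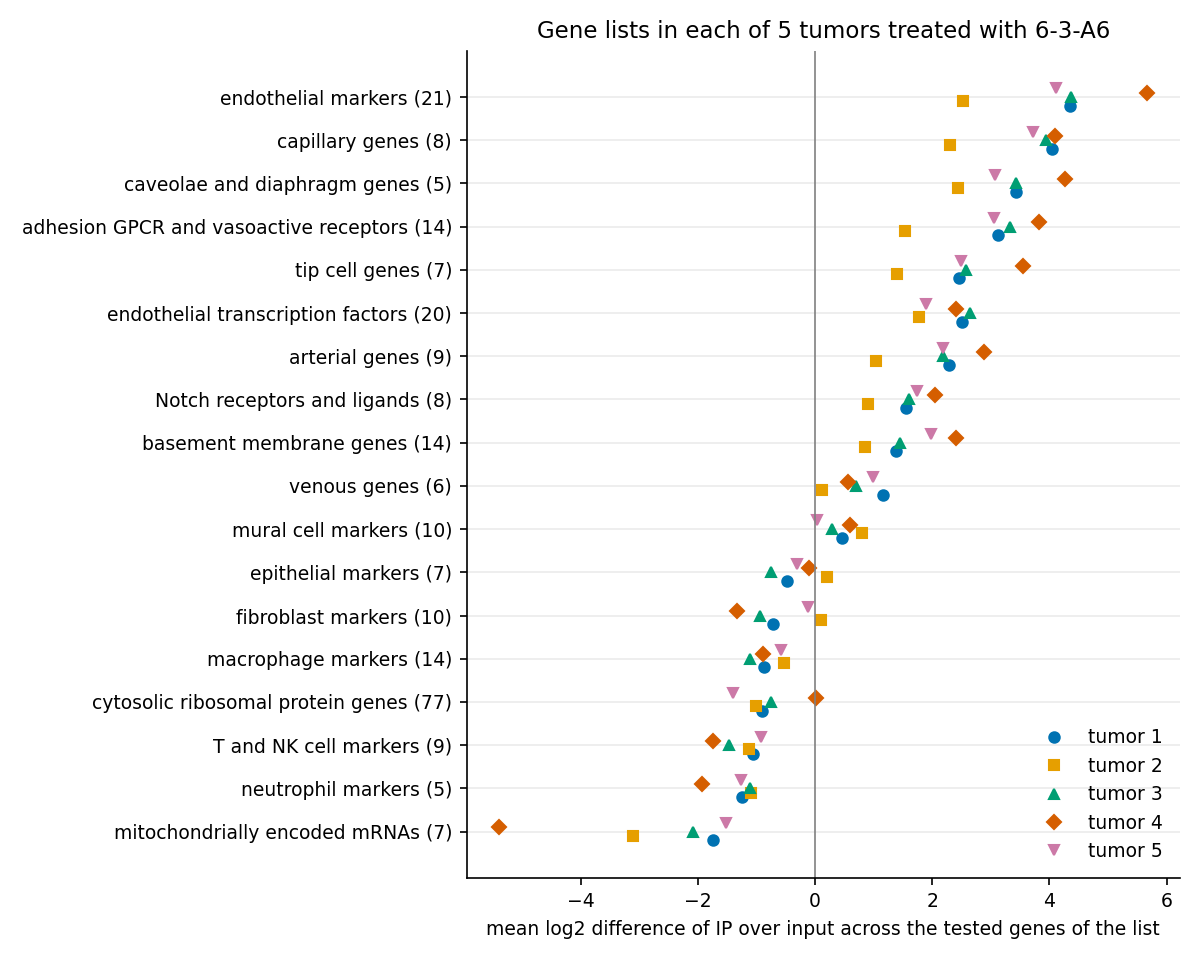
Mean log2 difference of IP over input across the tested genes of 18 lists (number of genes in brackets), with 1 point per tumor and a line at 0. Endothelial lists lie to the right in all 5 tumors, with tumor 2 nearest 0 for the endothelial markers, and the mitochondrially encoded mRNAs of tumor 4 lie farthest left.

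Rpl22, the gene that carries the tag, was at 554, 432, 683, 1135 and 762 CPM in the inputs and 263, 196, 315, 307 and 276 CPM in the IPs, with every IP below every input (-1.34 ± 0.19, adjusted p = 0.00183). The gene count does not separate the tagged from the untagged transcript. Its paralog Rpl22l1 was called without tumor 4 (log2 fold change -0.70) but not with all 5 tumors (-0.38 ± 0.33, adjusted p = 0.415). Of 77 tested cytosolic ribosomal protein genes 39 were called lower and 0 higher (median -0.79), and without tumor 4 the number was 75. The mean difference of the list was -0.90, -1.0, -0.75, 0.02 and -1.40 in tumors 1 to 5, so tumor 4 stood near 0. Rpl39, Rpl23a and Rps12 were at -1.81 ± 0.30, -1.57 ± 0.17 and -1.42 ± 0.19; ribosomal protein genes have many processed copies in the genome, which makes their counts uncertain. All 7 tested mitochondrially encoded mRNAs, which are translated on mitochondrial and not on tagged ribosomes, were called lower (median -2.79). mt-Nd1, a subunit of complex I, was at 15627, 9370.5, 21616, 88202 and 21447 CPM in the inputs and 3224, 933, 3945, 2068 and 4977 CPM in the IPs (-3.04 ± 0.53; -2.55 without tumor 4). mt-Nd2, mt-Cytb and mt-Nd4 were at -2.97 ± 0.66, -2.88 ± 0.57 and -2.79 ± 0.59, and mt-Nd2 lost its call without tumor 2 or 3 (adjusted p up to 0.0535). In the 3 tumors the study kept none of these 4 was called (adjusted p = 0.0528 for mt-Nd1, 0.0885 for mt-Nd2, 0.0891 for mt-Cytb and 0.096 for mt-Nd4), nor was Rpl39 (0.0628).

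Of 6 tested long noncoding RNAs 4 were called lower, and 1 without the block (median -0.88), namely Malat1 (-1.60 ± 0.50), Gas5 (-1.01 ± 0.20), Meg3 (-0.93 ± 0.28) and Neat1 (-0.69 ± 0.18). Malat1 was at 1936, 948, 568, 2066 and 918 CPM in the inputs and 712, 162, 256, 219 and 1279 CPM in the IPs, higher in the IP than in the input of tumor 5 alone. Without the block the adjusted p was 0.13 for Malat1, 0.26 for Meg3 and 0.11 for Neat1, and these 3 lost their calls without tumor 1 or 2, as did Malat1 without tumor 3, Meg3 without tumor 3 or 5 and Neat1 without tumor 5 (adjusted p up to 0.152). Among the 12 tested snoRNA host genes 8 were lower and 0 higher (median -1.02), with Snhg15 at -1.55 ± 0.24 and Snhg18 at -1.43 ± 0.28. In the 3 tumors the study kept the adjusted p was 0.079 for Snhg15, 0.108 for Snhg18 and 0.111 for Gas5. The most counted of the 5 tested replication-dependent histone genes, H2bc4 and H1f2, were at -0.02 ± 0.18 and 0.58 ± 0.22 and not called.

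Genes of cell state were mixed, and their counts stand beside 13.3% of all tested genes called higher and 12.3% called lower. Of 12 hypoxia and glycolysis genes 4 were higher and 1 lower (median 0.47; 1 and 0 without the block, and 5 and 1 with a median of 0.18 without tumor 4), with Pfkfb3, the glycolytic activator of sprouting endothelium, at 45.2, 40.6, 81.3, 44.1 and 41 CPM in the inputs and 93.4, 93.3, 157, 98.9 and 103 CPM in the IPs (1.14 ± 0.14) and with no overlap. Ankrd37 rose by 1.13 ± 0.25, and Car9, a carbonic anhydrase of hypoxic tumor cells, fell by 0.77; the adjusted p of these was 0.1 and 0.24 without the block and up to 0.154 without tumor 1 or 3, and for Car9 also without tumor 2 or 5. Cell cycle genes were higher in 3 of 12 and lower in 1; without tumor 4 the counts were 6 and 1. Mcm5, Top2a and Mki67 were at 0.89 ± 0.22, 0.85 ± 0.17 and 0.61 ± 0.19 and Birc5 at -0.66 ± 0.16; without the block only Mcm5 stayed called, the others having adjusted p of 0.1, 0.32 and 0.24, and all 4 lost their calls without tumor 1, Mcm5 also without tumor 2, Birc5 without tumor 3 or 5 and Mki67 without tumor 2, 3 or 5 (adjusted p up to 0.147). Dusp1 was the 1 of 10 immediate early genes called (1.46 ± 0.26), a share below that of all genes called higher. MHC genes were called lower in 3 of 8, and in 0 without the block. H2-Aa and H2-Eb1, class II molecules of antigen-presenting cells, were at -1.11 ± 0.18 and -0.90 ± 0.19 (adjusted p without the block 0.25 and 0.37). H2-Eb1 lost its call without tumor 1 or 3 (adjusted p up to 0.0666).

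The study follows 18 genes in its account of this experiment, as genes compared between 6-3-A6 and control IgG within the IP. The contrast here is IP against input, so a direction below is no re-test of that treatment effect. Of the 18 genes, 17 could be tested here. The list comes from the study's account of these same libraries, so it is no independent evidence of a direction. Of the 17, 5 were called higher in IP than in input (Bcar1, Nos3, Ramp3, Pgf and Rnd1) and 4 lower (Marco, Mmp9, Tlr9 and Hbb-bs), while without tumor 4 the counts were 6 and 7, and without the block 5 and 1. Mmp9, a secreted gelatinase, was at 33, 26.1, 25.5, 16.5 and 22.8 CPM in the inputs and 10.5, 15.5, 8.6, 6.41 and 11.6 CPM in the IPs, with every IP below every input (-1.26 ± 0.19). Tlr9, a receptor for DNA in immune cells, was at -0.75 ± 0.21 (0.42 without the block, up to 0.119 when tumor 1, 2, 3 or 5 was left out). The 8 that did not pass were Hras (0.29 ± 0.30), Tlr8 (-0.63 ± 0.24), Col6a3 (-0.16 ± 0.30), Fn1 (0.10 ± 0.32), Hes1, Hbb-bt (-0.56 ± 0.22), Hba-a1 (-0.52 ± 0.30) and Hba-a2 (-0.45 ± 0.38). Fn1, fibronectin, was at 3383, 3863, 3443, 1675 and 1564 CPM in the inputs and 2389, 9714, 2541, 1223 and 2366 CPM in the IPs, and tumor 2 alone stood far above its input. Rem2 had too few counts to test.

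Whether the enrichment itself differed with treatment was tested as the difference of the log2 fold changes in 1 fit of all 20 libraries, with each tumor as a block. Of 14488 genes 0 were called by edgeR (0%), 0 by DESeq2 and 0 by limma voom. At an unadjusted p under 0.05 stood 140 (0.966%), 159 (1.1%) and 155 genes (1.07%), in the same order. A share of 0.05 would fall under that threshold if no gene differed and p-values were uniform, so these fits ran conservative. The edgeR count of 140 ranged from 71 to 449 when 1 tumor was left out, the highest being without 6-3-A6 tumor 5 and the next, 241, without control IgG tumor 3, and it was 1158 in the tumors the study kept. The 3 smallest p-values belonged to Fcgbp, Rps18-ps3 and Stk32a, each with an adjusted p of 1. Fcgbp changed by -1.09 from input to IP in 6-3-A6 tumors and by 1.25 in control IgG tumors on the log2 scale, and 315 of its 723 counts came from the IP of control IgG tumor 2. Notch4 was at 3.73 in control IgG tumors and differed by 0.03 ± 0.50. Notch1 was at -0.06 in control IgG tumors, a difference of 0.71 ± 0.29 with an adjusted p of 1, and its fold change in 6-3-A6 tumors was 0.37 without tumor 4. For Pecam1, Cdh5 and Sox18 the differences were 0.08 ± 0.50, 0.23 ± 0.46 and 0.74 ± 0.46. The median of the endothelial markers was 4.20 in 6-3-A6 and 4.03 in control IgG tumors in that fit, and that of the mitochondrially encoded mRNAs -2.79 and -2.13. Without tumor 4 the fit of 6-3-A6 tumors alone put the mitochondrially encoded mRNAs at -2.22. In a fit of their own 10 libraries, control IgG tumors had 2392 of 13671 genes called higher (17.5%) and 2248 lower (16.4%). Among the 13481 genes tested in both, 1626 of the 1801 genes called higher in 6-3-A6 tumors were also called higher there (90.3%, and 68.3% of the control list), 1283 of 1678 were lower in both (76.5%, and 57.4% of the control list), and 0 were called in opposite directions. Without 6-3-A6 tumor 4 the shared calls were 2123 higher (79.8% of the 6-3-A6 and 89.4% of the control list) and 1954 lower (67.8% and 87.3%). A p that misses the threshold does not show equal enrichment.

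**Figure D4:**
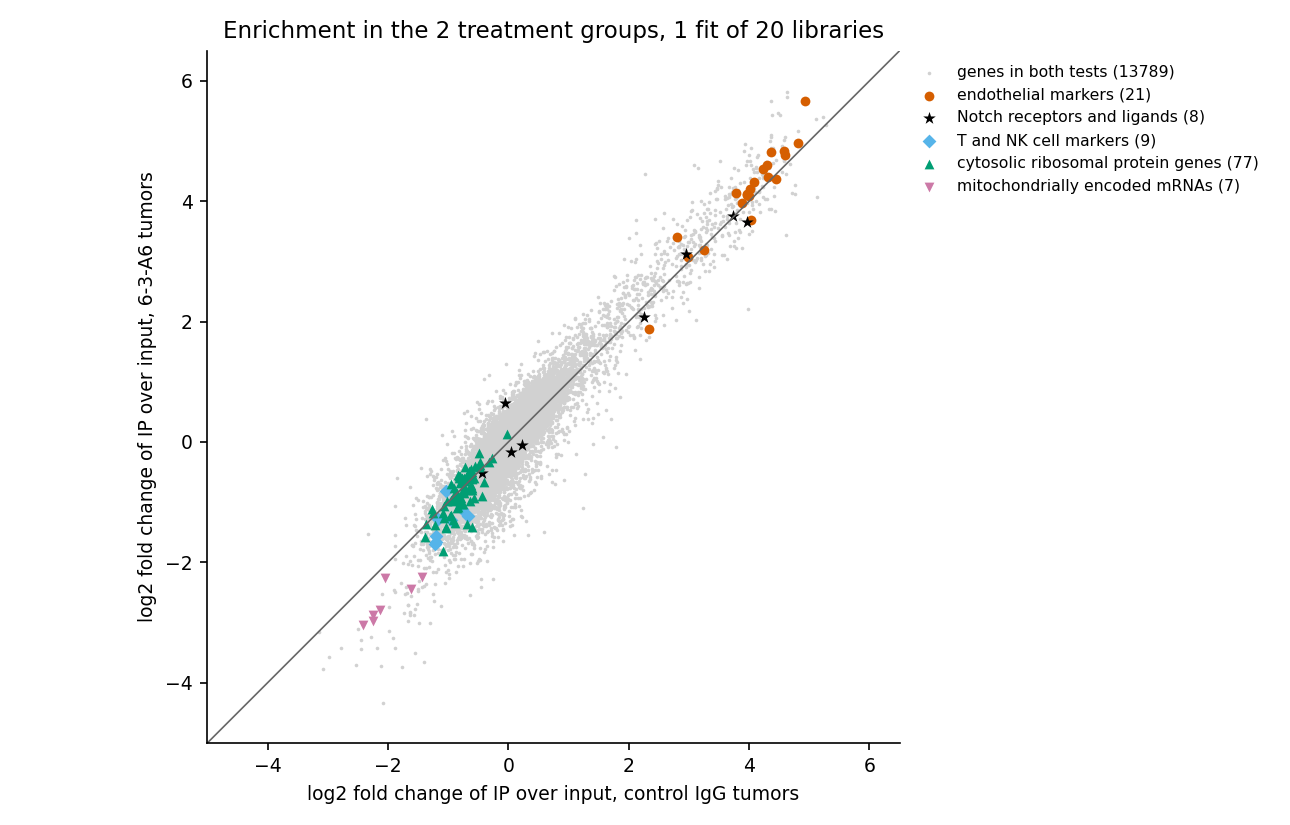
Log2 fold change of IP over input in 6-3-A6 tumors (vertical axis) against that in control IgG tumors (horizontal axis) for 13789 genes in the fit of 20 libraries; the line marks equal values and marked points are members of 5 lists. Endothelial markers lie near the line at the upper right in both groups, and the mitochondrially encoded mRNAs lie below it at the lower left, with tumor 4 included (median -2.79; -2.22 without it in the fit of 6-3-A6 tumors alone).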

How the data were processed

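RNA-seq libraries of anti-HA IPs and inputs were analysed from 1 table of gene counts, deposited by the authors as whole, unnormalised featureCounts counts per gene for 20 libraries. Per the labels' processing notes, reads were aligned with STAR 2.7.4a and counted with featureCounts (versions 2.0.1 and 1.5.2 are named); mm10 and GRCh38 are named as builds. The positions in the table are not those of GRCm38, and its gene lengths equal whole gene spans, introns included. The counting of strand and of reads shared by copies is not given in the sources used here. A second deposited table holds the authors' own comparison of IP libraries and was not used beyond its header. The sample descriptions give the fractions the other way round from the titles and column names, and the latter were followed.

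Genes with enough counts were kept by filterByExpr in edgeR 4.0.16 (R 4.3.3), leaving 13790 of 55866, and libraries were scaled by TMM. The main test was edgeR's quasi-likelihood F test with tumor as a block and fraction as the term. Benjamini-Hochberg adjusted p is called at under 0.05. The difference between treatments was the interaction of treatment and fraction over all 20 libraries with each tumor as a block. DESeq2 1.42.0, limma 3.58.1 (voom), other scalings and filters, no block and leaving out each tumor were the alternatives.

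IP and input of a tumor come from 1 lysate by protocol, so the tumor numbers pair them. Over 5000 genes the deviations of IP and input from their group means correlated at 0.556, 0.548, 0.432, -0.00983 and 0.559 in tumors 1 to 5. The input of each tumor but 4 correlated best with its own IP; that of tumor 4 reached 0.111 with another, so its pairing rests on the protocol. Libraries held 13914730 to 26728205 counts, where a count of 0 allows up to 3 counts, 0.112 to 0.216 CPM of the unscaled total; counting error only is covered by this. No 2 replicates were alike within sampling noise (lowest median chi-square of a pair 2.97 against 0.455 from sampling alone). By protocol tumor cells went into 1 fat pad per mouse.

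The members and gene lists were chosen with earlier results of these data known. Named genes are the markers, the tagged gene and its paralog, the Notch receptors and ligands, the 10 largest and 10 smallest fold changes (called, same sign in 5 tumors, mean of at least 1 CPM), up to 4 called members per list with the largest changes plus the called member of opposite sign with the smallest p, the 2 most counted members where none is called, the 3 smallest p of the interaction, and the genes the study names. Some genes that the rule takes are not reported here. Genes with no count were named after their values were seen. Both fits were also run on simulated counts, drawn without an outlying library such as the input of tumor 4. That run cannot show how the fits deal with such a library. Promoter windows are the 250 bases before the start in the RefSeq table (GRCm38.p6), searched for exact letters on both strands.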

Additional observations from a re-analysis of the deposited data

Results flagged for a closer look

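Values below are log2 differences of IP over input in 1 tumor that lie far from those of the other 4, out of 201 sets of 5 values examined, 20 of which stood out. A library with no count of a gene was set at 3 counts. Chance alone flags about 1 in 20 sets. No cause was tested.

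Tumor 2 lay low for endothelial genes. Dll4 was at 2.3 there against 3.703 to 4.134 in the other tumors, Kdr at 2.486 against 4.339 to 4.696, Jam2 at 2.571 against 4.384 to 4.915 and Pgf at 0.6572 against 2.604 to 3.128. The means of 4 lists did the same: adhesion GPCR and vasoactive receptors were at 1.532 against 3.05 to 3.611, capillary genes were at 2.297 against 3.716 to 4.101, VEGF ligands and receptors at 0.3229 against 1.265 to 1.322, and leukocyte adhesion molecules at 0.7049 against 1.699 to 1.949. Cxcl12 was also lowest in tumor 2, at -1.019 against -0.4805 to -0.3545, whereas Col6a3 was highest there, at 1.345 against -0.7693 to -0.1835.

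In tumor 4 the input had 38.2% of its counts in mitochondrially encoded genes against 6.9 to 13.1% in the other inputs. Notch1 was at 1.94 against 0.2366 to 0.6772. Gm8960 was at -6.909 against -2.493 to -2.108. The 3 globin genes Hba-a1, Hba-a2 and Hbb-bt were higher in the IP of tumor 4 than in its input and lower in the other tumors, while Hbb-bs was lower in all 5. Hba-a1 was at 1.189 against -1.245 to -0.5395, Hba-a2 at 2.161 against -1.137 to -0.5543 and Hbb-bt at 0.5745 against -1.052 to -0.5862. Car9 was at 0.2808 against -1.134 to -0.8601. Csf3r was at -0.2959 against -1.183 to -0.9764 and Ccr7 at -0.2525 against -1.778 to -1.401, while the mean of the neutrophil markers was lowest in tumor 4, at -1.805 against -1.269 to -1.092.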

How the results depend on the processing

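Genes called higher in IP numbered 1832 and ranged from 966 to 2706 when 1 tumor was left out, with 883 in the 3 tumors the study kept and 3415 under voom with sample weights. Genes called lower numbered 1698 and ranged from 621 to 2925 with 1 tumor left out; they were 801 under library totals, 388 in the tumors the study kept, 2832 in the fit of 20 libraries, 2606 in tumors 1, 3 and 5, and 3519 with sample weights. Calls under -1 numbered 821, ranged from 420 to 929, and were 390 under library totals and 352 in the tumors the study kept. For the difference between treatments, keeping all genes with a count gave 2 calls, Rpl34-ps1 and Rps18-ps3, instead of 0. Sample weights, tumors 1, 3 and 5, and the unblocked fit without the input of tumor 4 were chosen after seeing the data. Why the counts moved was not tested.

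Without the replicate block 1354 genes were called higher and 1153 lower, and 104 of the 138 called genes named kept their call. Of these 138, 138 did under DESeq2, voom, voom with weights and without tumor 4, 97 to 117 without another tumor, 117 under library totals and 91 in the tumors the study kept; 0 reversed.

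The genes whose sign turned had not been called with all 5 tumors. Notch3 was at 0.06146 and Col6a3 at 0.07483 under library totals, and Col6a3 at 0.07101 without the block. Jag1 was at 0.1772 under library totals, 0.03435 without the filter, 0.09956 in tumors 1, 3 and 5 and 0.01198 without the block and input 4, and between -0.1703 and 0.04651 with 1 tumor left out. H2bc4 was at 0.2019 under library totals, 0.0587 without the filter, 0.1967 in tumors 1, 3 and 5, 0.177 with sample weights and 0.1322 without the block and input 4, and between -0.0991 and 0.1026 with 1 tumor left out. Rpl22l1 was at 0.07789 in the tumors the study kept. Hras ranged from -0.006701 to 0.6039 and Fn1 from -0.2034 to 0.2657 with 1 tumor left out, and Fn1 was at -0.466 in the tumors the study kept, -0.139 in tumors 1, 3 and 5, and -0.1204 with sample weights.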
